A study of Arabidopsis thaliana with 12 samples.

Results

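The data described here are 8 of the 12 oligonucleotide arrays of a time course on Arabidopsis thaliana inflorescences with flower buds of stages 1 to 9: the 4 arrays made 4 h after dexamethasone (Dex) and the 4 made at 12 h. They were chosen by the time in their titles, and the question asked of them is which genes responded differently at 12 h than at 4 h. Every plant, treated or not, was Landsberg erecta (Ler) carrying 35S:HAN-GR, so HAN was driven by the 35S promoter of broad activity and not by its own promoter. Each array set RNA of plants given 10 µM Dex against RNA of mock-treated plants of the same time, and the dyes were swapped on 2 of the 4 arrays of each time. Plants lacking the fusion and given Dex are not analysed here, so effects of Dex itself and of the fusion cannot be told apart. The 4 arrays of each time are labelled as biological replicates, and nothing says whether they came from separate plantings, so p-values measure the spread between these samples.

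HANABA TARANU (HAN) is a GATA-type transcription factor known for its role in flower meristems and in the boundaries between meristem and organs. Fused to the hormone-binding part of the glucocorticoid receptor, a transcription factor stays in the cytoplasm until Dex releases it to the nucleus. A change seen soon after Dex can be a direct effect of the factor or an early secondary one, and later changes can add effects of other factors; no inhibitor of protein synthesis was used in the samples analysed here, so these cannot be told apart. HAN itself has no named probe in the data used here, so the induced gene could not be checked on the arrays.

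In what follows a response is the log2 ratio of one array, centred on that array's median. It is read here as Dex over mock, because the labels name mock RNA as control. No source used here states which RNA is on top, and if the ratio runs the other way, rises and falls swap throughout. Values given as a difference are the 12 h mean minus the 4 h mean in the same units. A feature is a named locus or a probe without a gene name, and "called" means an adjusted p under 0.05 in limma.

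A technical mismatch touches all results. The blank spots of an array lie mostly on one side of the ratio, and that side followed the labelled dye at 12 h and at 72 h, but went against the label on 2 of the 4 arrays at 4 h (replicates 1 and 3). At 4 h, arrays with blanks on the same side correlated at 0.55 to 0.64 across features, and arrays with blanks on opposite sides at 0.18 to 0.29. The 2 pairs that share a labelled dye correlated at 0.18 and 0.20. Over all values, with those at the limits of the ratio kept, these same-dye pairs correlated at -0.82 and -0.81. Pairs at 12 h with blanks on opposite sides then correlated at -0.72 to -0.67, against 0.39 to 0.49 without the limit values. Negative correlations appeared only with the limit values kept, and most of these lay on the side of the blanks. The limit values therefore carry no settled direction. Counts are therefore also given for a fit whose dye term follows the blank spots. The 4 h and 12 h means are the same in both fits for features with complete values, since the dyes are balanced either way.

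Of 18125 features tested, 441 (2.43%) responded differently at 12 h than at 4 h. The response was higher at 12 h for 188 features (1.04%) and lower for 253 (1.4%). The median absolute difference among the called features was 0.98, and 211 differed by more than 1, which is a 2-fold change of the ratio. Among the 430 called features with a value on all 8 arrays, the 4 h and 12 h values did not overlap for 429, against 14.9% of the 17357 features with all 8 values. The calls rest on these same values, so a lack of overlap, here and for single genes below, describes them and is no separate support. Named loci made up 208 of the 441, 1.95% of the named loci tested, and 39 of them have a gene symbol (3.07% of those tested), 15 higher and 24 lower at 12 h. The other 233 called features are unnamed here. The called features held 436 distinct sets of values, since 10 were identical to another.

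How many features passed depended on the fit. With the replicate number as a block, 157 features (0.866%) were called, 150 of them among the 441. A dye term set by the blank spots gave 679 calls (3.75%), including 432 of the 441, and with both changes 415 (2.29%) were called, including 321. The 8 arrays alone, without those of 72 h, gave 860 calls (4.74%), including 416 of the 441, but with the replicate block as well they gave 20 (0.11%), 17 of them among the 441. Of the genes named in the text, scpl31, DFR, AT1G26410 and AT1G63350 held in that last fit. With the limit values kept as numbers, 138 of 22048 features (0.626%) were called, all of them among the 441. They include 16 of the 39 genes with a symbol, namely scpl31, AOP3, UGT74B1, CHAT, UGT76E1, BGLU44, ATPMEPCRB, DJ1F, ACYB-2, CYP71B20, TBL38, ATMYC1, PUB25, UGT73C1, tny and DFR, and the other 23 lost their call. Calls in the fit and in all 8 fits that left out one array of the 2 times numbered 87 (0.48%), and all 87 also held with the block. The symbol-bearing genes among these 87 are scpl31, AOP3, CHAT, DJ1F, ACYB-2, CYP71B20, TBL38, ATMYC1, PUB25, tny, DFR and BGLU47. Without 12 h replicate 3 the count fell to 100, the lowest of these 8 fits, and the other 7 ranged from 104 to 282.

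**Figure D1:**
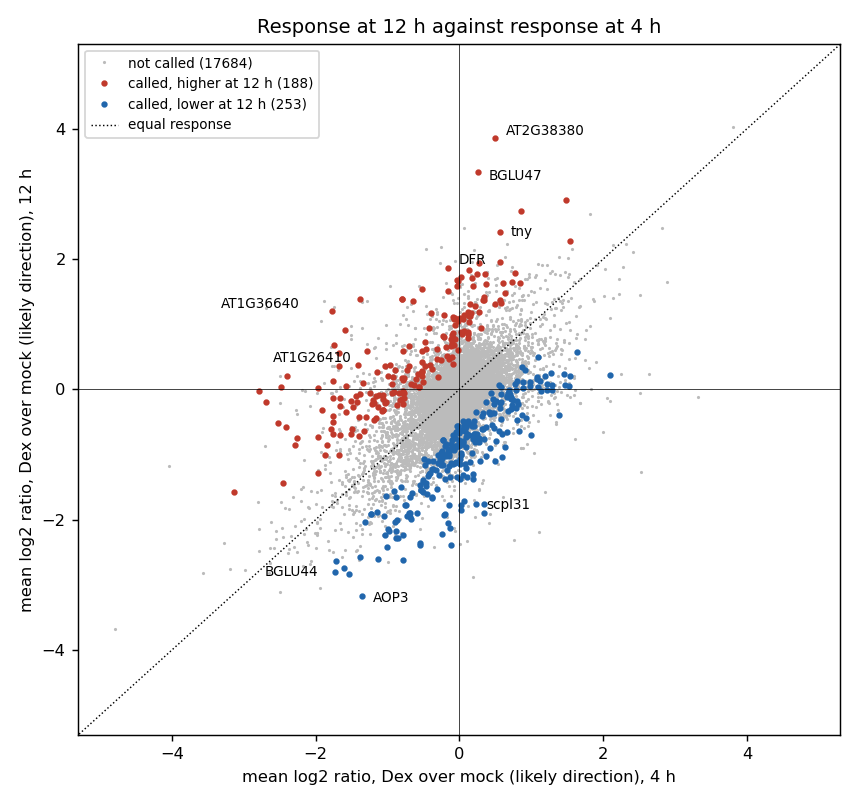
Each point is a feature, with its mean log2 ratio over up to 4 arrays at 4 h on the horizontal axis and at 12 h on the vertical axis; grey points were not called, red ones were called higher and blue ones lower at 12 h, and the dotted line marks equal responses. The 441 called features lie off the dotted line on both sides, with AT2G38380 and BGLU47 near 0 at 4 h and above 3 at 12 h.

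The change took several forms, which were sorted by whether the response itself was called against 0 at each time. A total of 2009 features (11.1%) were called at 4 h and 2867 (15.8%) at 12 h. Of the 1639 called at 12 h and not at 4 h, the difference was called for 196, and of the 781 called at 4 h and not at 12 h, for 135. Being called at a single time was therefore mostly not matched by a called difference between the times. Of the 1228 called at both times, 1209 had the same sign and 19 had opposite signs.

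Responses called at 12 h and not at 4 h form the largest of these classes. In 66 features the 12 h response was higher, with a median of -0.02 at 4 h and 1.1 at 12 h, and in 130 it was lower, with medians of 0.00 and -0.92. Responses called at 4 h and not at 12 h were 76 falls, with a median of -1.05 at 4 h and -0.03 at 12 h, and 59 rises, with medians of 0.79 and -0.07. A same-sign response that was larger at 12 h was seen in 65 features, of which 53 were falls that deepened from a median of -0.78 to -1.90. A same-sign response that was smaller at 12 h was seen in 25 features, of which 22 were falls that moved from a median of -1.71 to -0.69. Opposite signs, both called, were seen in 19, and 1 feature was called at neither time. With the replicate block the calls of 60 of the 196, 43 of the 135, 27 of the 65, 8 of the 25 and 12 of the 19 held.

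The 72 h means were not used to sort the features into these classes and show where the responses stood later. The 72 h arrays did enter the filter for values and the spread and dye term of the fit. The calls that define the classes are therefore not independent of them. Among the called features, the 72 h mean lay nearer to the 12 h mean than to the 4 h mean in 332 of 441 (75.3%), against 55.3% of all features tested. It did so for 123 of the 135 responses called at 4 h and not at 12 h, and for 34 of the 65 that were larger at 12 h. Those classes were chosen by calls on the 4 h and 12 h means, so the shares describe them and carry no test. At 72 h 271 of the 441 were called against 0, where 20.7% of all features were, 260 with the sign they had at 12 h and 11 with the opposite sign.

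**Figure D2:**
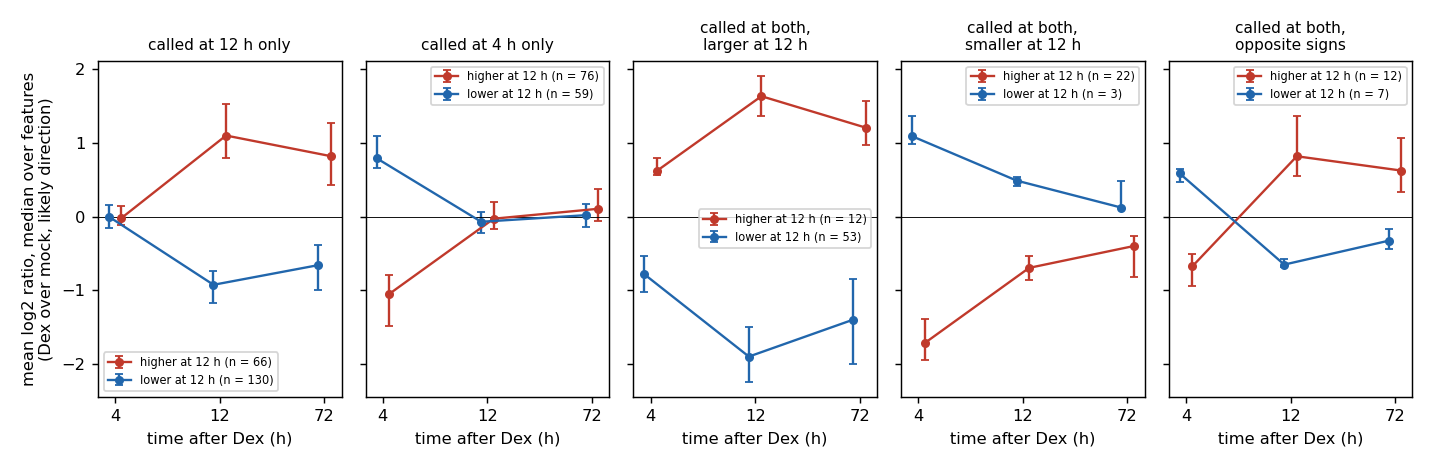
Each panel holds the called features of one class, named above it; points are medians over features of the mean log2 ratio at 4, 12 and 72 h, bars span the middle 50% of features, and red and blue separate features higher and lower at 12 h. Responses called at 4 h and not at 12 h have medians of 0.11 (red) and 0.02 (blue) at 72 h, and those called at 12 h and not at 4 h have medians of 0.82 and -0.66.

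The genes below are grouped by their known roles, a grouping made after their values were seen. Among genes with a symbol, rises that appeared at 12 h were led by a beta-glucosidase and by an enzyme of anthocyanin synthesis. BGLU47, of a family that splits glucose from small molecules, had responses of -0.06, 0.41 and 0.42 at 4 h, with replicate 2 at the limit and so missing. At 12 h its 4 values were 2.91, 3.69, 3.82 and 2.90. All 12 h arrays lay far above all measured 4 h arrays, and the fitted difference was 3.03 ± 0.24 (SE), 8.14-fold, with an adjusted p of 0.00097 in limma. It was back at 0.57 at 72 h. With the limit value kept as a number the call was lost (adjusted p = 0.95).

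DFR, dihydroflavonol 4-reductase of anthocyanin and tannin synthesis, had values of 0.06, -0.20, -0.56 and 0.08 at 4 h and of 1.84, 1.96, 1.75 and 1.93 at 12 h. The 4 h values surround 0 and the 12 h values lie within a narrow band, so the groups do not overlap. The difference was 2.02 ± 0.19 (SE), 4.07-fold, with an adjusted p of 0.0016. The 72 h mean was 0.51. GLR2.7, a glutamate receptor-like channel, rose in the same way, from a mean of 0.18 ± 0.38 (SD, n = 4) to 1.71 ± 0.22 (SD, n = 4), a difference of 1.53 ± 0.26 (SE) with an adjusted p of 0.017, and stood at 1.60 at 72 h. Its call was lost without 4 h replicate 2 or without 12 h replicate 2, 3 or 4, with an adjusted p of up to 0.071.

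tny (TINY), an AP2/ERF transcription factor, was already called as a rise at 4 h and rose further. Its values were 0.32, 0.26, 0.56 and 1.09 at 4 h and 2.20, 2.64, 2.37 and 2.46 at 12 h. Every 12 h array exceeded every 4 h array by more than 1, and the difference was 1.86 ± 0.19 (SE), 3.62-fold, with an adjusted p of 0.0022. Unlike BGLU47 and DFR, which had fallen back by 72 h in their means, tny had a mean of 2.30 at 72 h; the difference between 12 h and 72 h was not tested.

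Smaller rises of the same kind were found for 3 other genes with symbols. ALC (ALCATRAZ), a bHLH factor known for the opening of the fruit, went from -0.05 ± 0.09 to 0.77 ± 0.19 (SD, n = 4), with an adjusted p of 0.021. PMEPCRF, a pectin methylesterase that changes the pectin of the cell wall, went from 0.13 ± 0.47 to 1.13 ± 0.12, with an adjusted p of 0.041. CP1, a cysteine protease, went from -0.22 ± 0.25 to 0.82 ± 0.39, with an adjusted p of 0.031. All 3 calls were lost with the replicate block, at adjusted p of 0.056, 0.12 and 0.077. Each was also lost in 6 of the 8 fits that left out 1 array, among them those without 4 h replicate 2 and 12 h replicates 2, 3 and 4 for each, with adjusted p of up to 0.088, 0.14 and 0.11.

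The largest difference of a locus without a symbol in this direction belonged to AT2G38380. It read 0.62, 0.08, 0.65 and 0.61 at 4 h and 2.99, 4.99, 3.79 and 3.64 at 12 h, a difference of 3.36 ± 0.45 (SE), 10.3-fold, with an adjusted p of 0.0063. The 72 h mean was 3.90, which is close to the 12 h mean of 3.85. AT2G25450 was called as a rise at both times and was larger at 12 h, with values of 1.97, 0.93, 1.52 and 1.49 at 4 h and of 2.48, 3.29, 2.72 and 3.10 at 12 h. Its times do not overlap, and the difference was 1.42 ± 0.29 (SE), 2.68-fold, with an adjusted p of 0.034. That call was lost with the block (adjusted p = 0.11), with the limit values kept (0.11) and without 4 h replicate 2, 3 or 4 or 12 h replicate 2, 3 or 4 (up to 0.12).

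**Figure D3:**
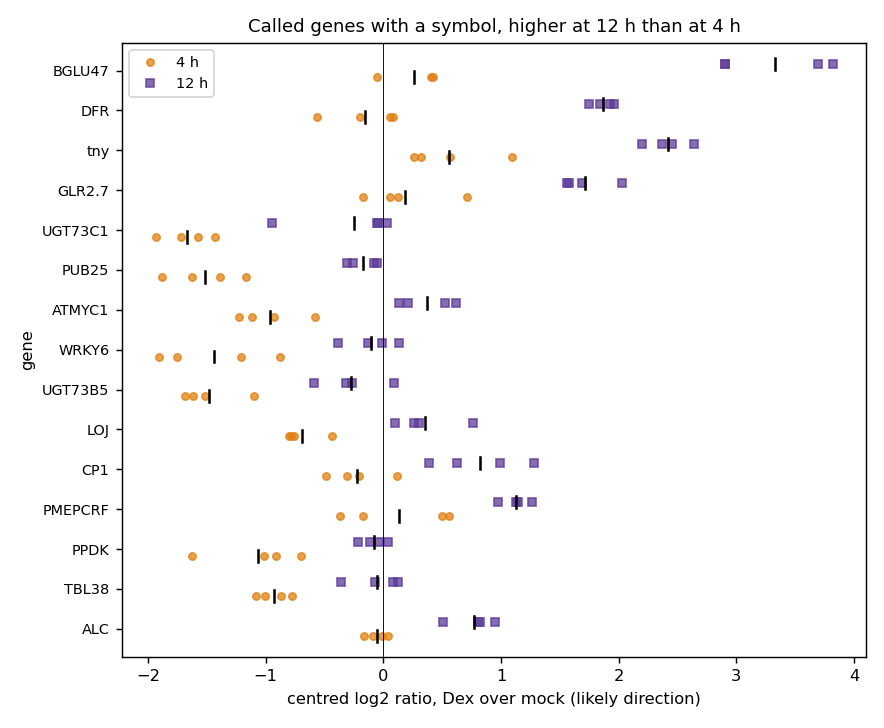
The 15 called genes with a symbol that were higher at 12 h; each point is 1 array, circles for 4 h and squares for 12 h, the horizontal axis is the centred log2 ratio, and the short black lines are means over the arrays measured. In PUB25, ATMYC1, WRKY6, UGT73C1, UGT73B5, LOJ, PPDK and TBL38 all 4 h values are below 0 and the 12 h means lie between -0.27 and 0.37.

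A further group of genes was called as a fall at 4 h and not called at 12 h, which also gives a positive difference. Of the 15 genes with symbols that were higher at 12 h, 8 belong here: PUB25, ATMYC1, WRKY6, UGT73C1, UGT73B5, LOJ, PPDK and TBL38.
PUB25, a U-box E3 ubiquitin ligase, had values of -1.88, -1.39, -1.62 and -1.17 at 4 h and of -0.26, -0.08, -0.31 and -0.06 at 12 h. No 12 h array came near the 4 h arrays, and the 72 h mean was 0.01. The difference was 1.34 ± 0.17 (SE), 2.53-fold, with an adjusted p of 0.0044. TBL38, of the trichome birefringence-like family that acetylates wall polysaccharides, went from -0.93 ± 0.14 to -0.06 ± 0.22 (SD, n = 4), with an adjusted p of 0.0073.

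Transcription factors were among them. ATMYC1, a bHLH factor known in trichome patterning, had values of -0.93, -1.12, -1.23 and -0.59 at 4 h and of 0.62, 0.52, 0.21 and 0.14 at 12 h. Its sign was opposite on all 8 arrays, although the 12 h response on its own was not called (adjusted p = 0.078), and the difference was 1.34 ± 0.18 (SE) with an adjusted p of 0.0062. WRKY6, a factor of senescence and defence, went from -1.91, -1.21, -0.88 and -1.76 at 4 h to -0.39, -0.13, -0.01 and 0.13 at 12 h. The groups do not overlap, and the difference was 1.34 ± 0.25 (SE) with an adjusted p of 0.025. The WRKY6 call was lost without 4 h replicate 1 or 4 or 12 h replicate 2, 3 or 4, with an adjusted p of up to 0.098.

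A pair of UDP-glucosyltransferases, enzymes that attach sugar to small molecules, showed the same course. UGT73C1 had values of -1.72, -1.43, -1.58 and -1.93 at 4 h and of -0.06, -0.94, 0.03 and -0.04 at 12 h. Replicate 2 at 12 h lay apart from the other 3 but above all 4 h arrays, and the difference was 1.41 ± 0.22 (SE), 2.66-fold, with an adjusted p of 0.011. With the replicate block the adjusted p was 0.057, and without 12 h replicate 4 it was 0.051. UGT73B5 went from -1.48 ± 0.26 to -0.27 ± 0.28 (SD, n = 4), with an adjusted p of 0.029 and, with the block, 0.051. The UGT73B5 call was lost without any 1 of 7 arrays, all but 4 h replicate 3, with an adjusted p of up to 0.11.

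LOJ, a pentatricopeptide repeat protein known for expression at the junctions of lateral organs, had values of -0.76, -0.80, -0.79 and -0.44 at 4 h and of 0.76, 0.10, 0.30 and 0.26 at 12 h. Its sign was opposite on all 8 arrays, and the difference was 1.05 ± 0.21 (SE) with an adjusted p of 0.031. PPDK, pyruvate orthophosphate dikinase, went from -1.06 ± 0.40 to -0.08 ± 0.11 (SD, n = 4), with an adjusted p of 0.042. Both calls were lost with the block (adjusted p = 0.073 and 0.051) and without any 1 of the 8 arrays (adjusted p of up to 0.10 and 0.14).

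Loci without a symbol gave larger differences in this class. AT1G26410 read -2.50, -2.20, -2.11 and -2.76 at 4 h and 0.08, 0.24, 0.26 and 0.21 at 12 h. The 12 h arrays were within 0.2 of each other and the 72 h mean was 0.37, and the difference of 2.59 ± 0.15 (SE) had the adjusted p of 7.2e-05. AT1G63350 went from -2.47 ± 0.08 to 0.03 ± 0.14 (SD, n = 4), with an adjusted p of 0.00023, which was 0.66 with the limit values kept, and AT1G56270 from -1.75 ± 0.26 to 0.12 ± 0.25, with an adjusted p of 0.0022. AT5G39580 continued upward, with means of -1.41, 0.38 and 2.12 at 4, 12 and 72 h.

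Among genes with symbols, 13 had a lower response called at 12 h and not at 4 h, and 8 had a fall called at both times that was deeper at 12 h. The gene with the largest difference was scpl31, a serine carboxypeptidase-like protein, with values of -0.04, 0.01, 0.59 and 0.35 at 4 h and of -1.53, -1.74, -2.08 and -1.67 at 12 h. The 4 h arrays lie between -0.04 and 0.59, all 12 h arrays are below -1.5, and the 72 h mean stayed at -1.78. The difference was -1.98 ± 0.14 (SE), 3.94-fold lower, with an adjusted p of 0.00023.

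**Figure D4:**
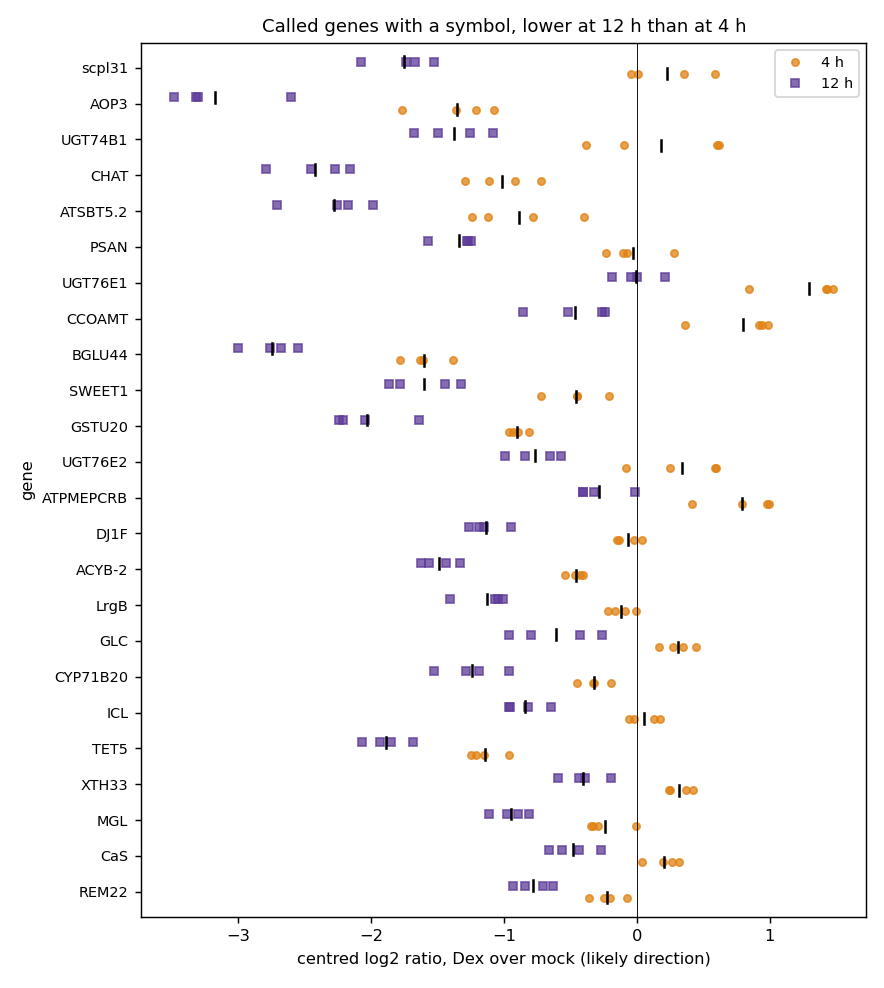
The 24 called genes with a symbol that were lower at 12 h; each point is 1 array, circles for 4 h and squares for 12 h, the horizontal axis is the centred log2 ratio, and the short black lines are means. AOP3 and BGLU44 are below -1 at 4 h and below -2.5 at 12 h, while UGT76E1, CCOAMT and ATPMEPCRB are above 0 at 4 h.

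AOP3, a dioxygenase that modifies the side chain of glucosinolates, the sulfur-containing defence compounds of the cabbage family, had values of -1.08, -1.36, -1.21 and -1.76 at 4 h and of -2.60, -3.48, -3.30 and -3.31 at 12 h. It was called as a fall at both times, and the difference of -1.82 ± 0.25 (SE), 3.54-fold lower, had an adjusted p of 0.0073. The 72 h mean was -3.48. UGT74B1, a glucosyltransferase of glucosinolate core synthesis, had values of -0.10, 0.60, 0.62 and -0.38 at 4 h and of -1.08, -1.50, -1.26 and -1.68 at 12 h. Its 4 h arrays straddle 0 and its 12 h arrays are all below -1, and the difference was -1.56 ± 0.25 (SE) with an adjusted p of 0.014. The UGT74B1 call was lost with the replicate block (adjusted p = 0.060) and without 4 h replicate 2 or 12 h replicate 2, 3 or 4 (adjusted p of up to 0.063). AT2G25450, which is also a glucosinolate dioxygenase, went the other way, with the difference of 1.42 and the lost calls given above. The genes of this pathway were not counted as a list, so no direction is given for it.

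Other enzymes of small-molecule metabolism fell further at 12 h from a response already called at 4 h. CHAT, which makes the leaf volatile hexenyl acetate, had values of -1.29, -0.92, -1.11 and -0.72 at 4 h and of -2.45, -2.27, -2.16 and -2.79 at 12 h, a difference of -1.41 ± 0.19 (SE) with an adjusted p of 0.0057. BGLU44, a beta-glucosidase, went from -1.60 ± 0.17 to -2.75 ± 0.19 (SD, n = 4; adjusted p = 0.018) and GSTU20, a glutathione transferase, from -0.90 ± 0.06 to -2.03 ± 0.28 (adjusted p = 0.023). CYP71B20, a cytochrome P450, went from -0.33 ± 0.10 to -1.24 ± 0.23 (adjusted p = 0.0074), and ACYB-2, a cytochrome b561 that carries electrons across membranes, from -0.46 ± 0.06 to -1.49 ± 0.13 (adjusted p = 0.0074). In all of these genes the 4 h and 12 h values did not overlap. The BGLU44 call was lost with the block (adjusted p = 0.061) and without 4 h replicate 2 or 3 or 12 h replicate 2, 3 or 4 (up to 0.075), and that of GSTU20 without 4 h replicate 1, 2 or 3 or 12 h replicate 2, 3 or 4 (up to 0.083).

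TET5, a tetraspanin membrane protein, and ATSBT5.2, a subtilisin-like protease, followed the same course. TET5 went from -1.14 ± 0.13 to -1.88 ± 0.16 (SD, n = 4; adjusted p = 0.041) and stood at -2.42 at 72 h. ATSBT5.2 went from -0.88 ± 0.38 to -2.28 ± 0.31 (adjusted p = 0.022) and stood at -1.13 at 72 h. With the block the adjusted p was 0.12 for TET5 and 0.084 for ATSBT5.2. TET5 was also lost without any 1 of the 8 arrays (up to 0.14) and ATSBT5.2 without 4 h replicate 3 or any 1 of the 12 h arrays (up to 0.072).

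New falls at 12 h, from a 4 h response not called against 0, included DJ1F, SWEET1, ICL and MGL. DJ1F, of the DJ-1 family, had values of 0.04, -0.13, -0.02 and -0.15 at 4 h and of -0.95, -1.18, -1.26 and -1.15 at 12 h, with an adjusted p of 0.0073. The 4 h arrays lie around 0, the 12 h arrays around -1, and the 72 h mean was -0.36. SWEET1, a glucose transporter, went from -0.46 ± 0.21 to -1.60 ± 0.26 (SD, n = 4; adjusted p = 0.042). ICL, isocitrate lyase of the glyoxylate cycle, went from 0.06 ± 0.11 to -0.84 ± 0.15 (adjusted p = 0.0498) and was at -1.95 at 72 h. MGL, methionine gamma-lyase, went from -0.24 ± 0.16 to -0.95 ± 0.13 (adjusted p = 0.023).

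REM22, a B3-domain factor of the reproductive meristem family, went from -0.22 ± 0.12 to -0.78 ± 0.13 (SD, n = 4; adjusted p = 0.035) and was at -1.23 at 72 h. The calls of SWEET1, ICL, MGL and REM22 were lost with the block, at adjusted p of 0.12, 0.10, 0.063 and 0.12. SWEET1, ICL and REM22 were lost without any 1 of the 8 arrays (up to 0.15, 0.16 and 0.13), and MGL without any 1 of 7, all but 4 h replicate 4 (up to 0.088).

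PSAN, LrgB and CaS, whose products sit in chloroplast membranes, were all lower at 12 h. PSAN, subunit N of photosystem I, had values of 0.28, -0.10, -0.08 and -0.23 at 4 h and of -1.27, -1.24, -1.27 and -1.57 at 12 h. The 4 h arrays surround 0 and the 12 h arrays are all below -1.2; the difference was -1.31 ± 0.28 (SE) with an adjusted p of 0.042. LrgB, the plastid transporter of glycolate and glycerate in photorespiration, went from -0.12 ± 0.09 to -1.13 ± 0.19 (SD, n = 4; adjusted p = 0.026). CaS, a calcium-sensing protein of the thylakoid, went from 0.20 ± 0.12 to -0.48 ± 0.17 (adjusted p = 0.028). With the block all 3 calls were lost (adjusted p = 0.11, 0.065 and 0.089), as were PSAN and LrgB without any 1 of the 8 arrays (up to 0.14 and 0.099) and CaS without 4 h replicate 1, 2 or 3 or 12 h replicate 2, 3 or 4 (up to 0.11).

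The list of photosynthesis genes, drawn from gene names, does not hold PSAN, LrgB or CaS, which were called. None of its 9 tested members was called. All 9 differences were below 0, from -1.25 to -0.15 with a median of -0.55, against a median of -0.00 over all features. Of the 18125 features tested, 9180 had a difference below 0. LHB1B2, a light-harvesting protein, went from 0.21 ± 0.70 at 4 h to -1.04 ± 0.93 at 12 h (SD, n = 4; adjusted p = 0.19), with overlapping values. LHCB4.2, of the minor antenna, went from -0.04 ± 0.23 to -1.04 ± 0.47 (adjusted p = 0.080). At both times replicates 1 and 4 of LHB1B2, with blanks on the lower side, lay below replicates 2 and 3. PSBW, PSBY and LHCB4.1 were split in the same way, but not all members were. At 12 h 4 of the 9 were called against 0, where 15.8% of all features were, and at 4 h 0 were, where 11.1% of all features were. The markers of green tissue measured here are LHCB4.1, with a difference of -1.05, and PORB, with a difference of -0.32, and LHCB4.1 and PORB are also members of the photosynthesis list. In whole inflorescences fewer cells of a type and less RNA per cell cannot be told apart.

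Another set had a mean above 0 at 4 h and near 0 or below it at 12 h. The neighbouring genes UGT76E1 and UGT76E2, which encode UDP-glucosyltransferases, were both lower at 12 h. UGT76E1 had values of 0.85, 1.48, 1.42 and 1.43 at 4 h and of 0.00, -0.04, -0.19 and 0.22 at 12 h, a difference of -1.30 ± 0.24 (SE) with an adjusted p of 0.024. UGT76E2 had values of 0.60, 0.25, -0.08 and 0.58 at 4 h and of -0.66, -0.84, -0.99 and -0.57 at 12 h, a difference of -1.10 ± 0.18 (SE) with an adjusted p of 0.014. In neither gene do the times overlap. Probes for such related genes can bind each other's RNA, which was not tested. UGT76E1 was lost with the block (adjusted p = 0.086) and without any 1 of 7 arrays, all but 4 h replicate 1 (up to 0.091), and UGT76E2 without 12 h replicate 2 or 3 (up to 0.066).

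CCOAMT, a caffeoyl-CoA methyltransferase of the lignin pathway, had values of 0.92, 0.36, 0.94 and 0.99 at 4 h and of -0.24, -0.51, -0.85 and -0.26 at 12 h. ATPMEPCRB, a pectin methylesterase, had values of 0.42, 0.98, 0.79 and 0.99 at 4 h and of -0.02, -0.41, -0.32 and -0.41 at 12 h. Both were above 0 on all 4 h arrays and below 0 on all 12 h arrays, with differences of -1.27 ± 0.27 and -1.08 ± 0.17 (SE) and adjusted p of 0.041 and 0.014. With the block their adjusted p was 0.099 and 0.065. CCOAMT was lost without any 1 of the 8 arrays (up to 0.14), and ATPMEPCRB without 4 h replicate 2 or 12 h replicate 2, 3 or 4 (up to 0.061).

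XTH33, a xyloglucan endotransglucosylase/hydrolase that remodels the cell wall, and GLC also changed sign on all 8 arrays. XTH33 went from 0.32 ± 0.09 to -0.40 ± 0.16 (SD, n = 4; adjusted p = 0.024) and had a mean of 1.25 at 72 h, farther from 12 h than from 4 h. GLC went from 0.31 ± 0.12 to -0.61 ± 0.32 (adjusted p = 0.029). With the block the adjusted p was 0.081 and 0.10, and each was lost without any 1 of 7 arrays, all but 4 h replicate 4 for XTH33 and all but 4 h replicate 3 for GLC (up to 0.085 and 0.11).

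Full reversals, called against 0 at both times with opposite signs, were found in 19 features, 8 of them named and none with a symbol; 12 of the 19 went from a fall to a rise. AT1G36640 read -1.70, -2.0, -1.72 and -1.64 at 4 h and 0.72, 1.67, 1.90 and 0.50 at 12 h, a difference of 2.96 ± 0.37 (SE) with an adjusted p of 0.0063, which was 0.55 with the limit values kept. AT1G27030 read -1.58, -1.74, -1.67 and -1.36 at 4 h and 0.86, 1.28, 0.89 and 0.65 at 12 h, a difference of 2.51 ± 0.18 (SE) with an adjusted p of 0.00023. In the other direction AT5G59990 read 0.77, 1.33, 0.78 and 1.13 at 4 h and -0.86, -0.47, -0.50 and -0.95 at 12 h, a difference of -1.70 ± 0.21 (SE) with an adjusted p of 0.0037. No value at one time reached the other time's side of 0 in these 3 loci. AT5G14730 reversed from -1.39 ± 1.08 to 1.39 ± 0.37 (SD, n = 4; adjusted p = 0.029), with a wide spread at 4 h, where replicates 1 and 4 lay at -2.47 and -2.16 and replicates 2 and 3 at -0.37 and -0.54. Its call was lost with the limit values kept (adjusted p = 0.079) and without 4 h replicate 1 or 4 or any 1 of the 12 h arrays (up to 0.10).

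Gene families were counted with lists drawn from gene symbols and synonyms. A locus whose names do not state its family was left out, so the counts are for the lists and not for whole families. In all, 243 loci of these lists were tested and 15 were called, where 2.43% of all features and 3.07% of those with a symbol were. Shares of lists this small move by several percent with each gene. UDP-glycosyltransferases had 5 of 35 called, the 2 higher and 3 lower described above, with a median difference of -0.11. Beta-glucosidases had 2 of 14, BGLU47 higher and BGLU44 lower; BGLU45, with means of 1.09 and 1.92, had an adjusted p of 0.13. Cell wall enzymes had 3 of 26, PMEPCRF higher and ATPMEPCRB and XTH33 lower, with a median of -0.10. Single members were called among 17 cytochrome P450 enzymes, 10 glutathione transferases, 6 WRKY factors, 15 transporters and 23 serine carboxypeptidase-like proteins.

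The other lists with a tested member had no called member. Of the 37 lists and 6 marker lists, only 28 had a tested member, and the rest give no count. The called bHLH factors ALC and ATMYC1 are not in the bHLH list, where 0 of 8 were called. The AP2/ERF list had 0 members tested, although tny was called. With 2.43% of all features called, lists of this size would hold few or no calls at the same share, so the zeros say nothing particular about them. None of 26 MADS-box factors was called, with AGL24, a flowering-time factor, at means of 0.22 and -0.69 (adjusted p = 0.091). None of 7 auxin genes was called, with IAA29, an Aux/IAA repressor, at means of -1.51 and 0.33 (adjusted p = 0.066). The 4 cytokinin genes and 11 cold and dehydration genes also had 0 called. For 6 glutaredoxins, a list corrected after its members were seen, all differences were below 0, with a median of -0.49, and none was called. For 5 pathogen response genes all differences were above 0, with a median of 0.71, and none was called. Over all 18125 features tested, 9180 differences were below 0, and a shared sign within a list was not tested. The marker lists for floral organ identity, pollen and tapetum, green tissue, shoot meristem, dividing cells and the clock, with 1 to 3 tested genes each, had 0 called, and as ratios they do not check the tissue label. A p above the threshold does not show that these genes responded alike at both times.

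Neighbouring loci on a chromosome were looked at by their order in the TAIR10.1 gene table. Of 4368 adjacent pairs tested, 166 had at least 1 called member and 8 had both called. In 7 of these 8 both members moved in the same direction. They include UGT76E1 with UGT76E2, AT1G27020 with AT1G27030, and AT2G26380 with AT2G26390, the last of which went from 0.02 ± 0.26 to -1.78 ± 0.37 (SD, n = 4; adjusted p = 0.0022, and 0.87 with the limit values kept).

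**Figure D5:**
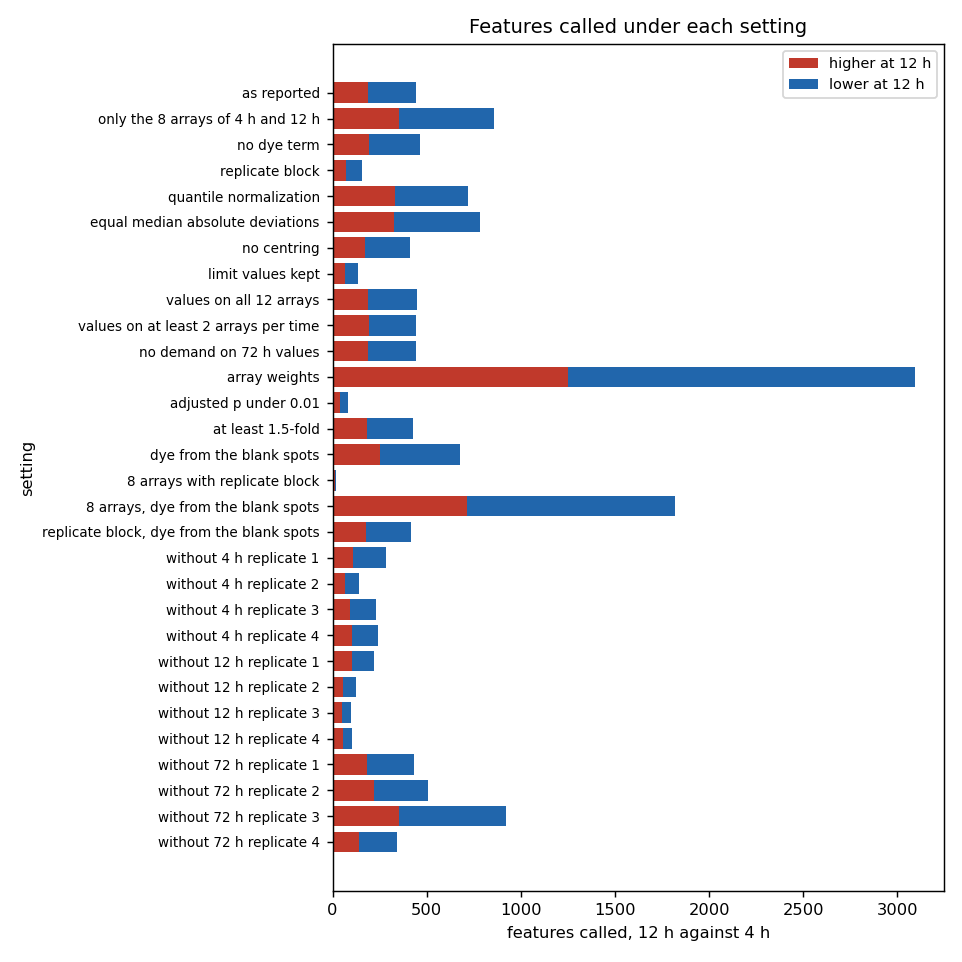
Horizontal bars give the number of features called for 12 h against 4 h under each setting on the vertical axis, with red for higher and blue for lower at 12 h. The count is 441 as reported, 157 with the replicate block, 3095 with array weights and 679 where blank spots set the dye.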

How the data were processed

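The authors deposited one log2 ratio per spot and array. How background and normalization were handled, and which channel is on top, the sources used here do not say. The RNA had been amplified by in vitro transcription before dye coupling, per the labels' protocols. The table held 26540 rows, 450 of them controls or blanks; the 26090 gene probes had between 21888 and 22385 values per array, of which 9.43% to 17.2% lay at the limits of -6.64 and 6.64 and were treated as missing. No column was without a sample. A single gene name was available for 13960 gene probes and none for 12130 (0 had several names); 13912 matched the TAIR10.1 table, giving 13698 loci, 1496 with a symbol. Probes of a locus were averaged.

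Features needed 3 or more measured arrays per time to be tested, which 18125 of 25875 had. Arrays were centred on their medians. A mean per time and a term for the labelled dye were fitted to all 12 arrays in limma 3.58.1 (R 4.3.3) with empirical Bayes moderation. P-values were two-sided and Benjamini-Hochberg adjusted over all features. The fit was tested on simulated data with independent noise on each array and no dye, blank-spot or replicate effect. That simulation therefore cannot speak to the mismatch of the blank spots or to the pairing. Ratios hide the signal over background, so precision is judged from the number of arrays.

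Members, lists and rules were chosen with earlier results of these data known, and a list of glutaredoxins and one of transporters were corrected after their members were seen. The genes named are the 15 largest differences per direction with complete, non-overlapping values, up to 3 per list and direction, and 5 per class; the called genes with a symbol were added.

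Same-numbered arrays of 4 h and 12 h deviated together, with correlations of 0.15, 0.19, 0.32 and 0.23 over 17357 features, so the numbers were taken to pair the arrays and a fit with the replicate as a block is given. The pairing comes from these correlations alone. It is weak: 4 h replicate 1 correlated with 12 h replicate 4 at 0.19, replicate 2 with 3 at 0.24 and replicate 4 with 1 at 0.29. Each of these was above the value for the same number, and only 4 h replicate 3 correlated best with its own number. With the blank-spot side removed the same-number values were -0.06, 0.07, 0.07 and -0.06. Promoter motifs were not searched, as no sequences were used here. Probe names and their updates can be old.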

Additional observations from a re-analysis of the deposited data

Results flagged for a closer look

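Among groups of 4 arrays of the genes named, 9 of 135 held an array far from the other 3 by Dixon's criterion, which flags about 1 in 20 by chance. At 4 h these were UGT76E1 with its lowest array at 0.85, CCOAMT at 0.36 and AT2G38380 at 0.084, and MGL with its highest array at -0.00 (-0.0043) and LOJ at -0.44. At 12 h they were PSAN with its lowest array at -1.57, LrgB at -1.41 and UGT73C1 at -0.94, and AT1G63350 with its highest array at 0.25.

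The difference between the times was itself tested and called for 441 features. In 15 of the genes named, every 4 h array lay on one side of 0 and every 12 h array on the other. In the data as a whole 361 features did so, and 73 of these were called. The genes named were chosen partly for opposite signs or for values that do not overlap, so the 15 partly reflect that choice. The differences from a fall to a rise were 1.05 for LOJ, 1.34 for ATMYC1, 1.56 for AT2G36770, 2.51 for AT1G27030, 2.59 for AT1G26410, 2.78 for AT5G14730 and 2.96 for AT1G36640. From a rise to a fall they were -0.68 for CaS, -0.72 for XTH33, -0.92 for GLC, -1.08 for ATPMEPCRB, -1.27 for CCOAMT, -1.52 for AT2G34930, -1.59 for AT5G59540 and -1.70 for AT5G59990.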

How the results depend on the processing

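None of the differences of the 69 genes named changed sign under the settings tried. Some settings alter only the spread or the threshold, and many of the genes were chosen for values that do not overlap. The lack of a sign change is therefore no separate support. The count for 12 h against 4 h, 441, became 860 with the 8 arrays alone, 157 with the replicate block, 720 with quantile normalization, 782 with equal median absolute deviations, 138 with limit values kept, 3095 with array weights, 81 at an adjusted p under 0.01, and 679 with the dye from the blank spots. Settings added after the data were seen gave 20 for the 8 arrays with the replicate block and 1817 for the 8 arrays with the dye from the blank spots. Without 1 array the count ran from 100 to 920, the latter without 72 h replicate 3. The 2009 features changed at 4 h became 4619 with array weights and 1200 at an adjusted p under 0.01, and ran from 1330 to 2733 without 1 array. The 2867 at 12 h became 6851, 1671 and, at 1.5-fold or more, 1854, and ran from 1739 to 3904. The block gave 1664 at 4 h and 2396 at 12 h. The causes were not tested. Unadjusted, 2329 features had p under 0.05. Of the 69 genes, 4 held with the 8 arrays and the block together, 33 with the block, 68 with the dye from the blank spots, 29 with limit values kept and 27 without each of the 8 arrays in turn; without 12 h replicate 3, 40 were lost. Ratios do not show signal over background.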

Other observations

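Some features could not enter the comparison because they were measured at one time and at the limits or absent at the other: 256 had values on at least 3 arrays at 12 h and on 0 at 4 h, and 190 the reverse. In the data as a whole the spread between arrays was similar at both times compared, with a median SD of 0.21 at 4 h and 0.19 at 12 h, and wider at 72 h, at 0.34. Among features without a gene name 233 were called, and the 10654 named features had 208 called (1.95%).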
